A study of Mus musculus with 8 samples.

Results

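Endothelial identity genes and the genes that mark arteries, veins, glomerular capillaries, sprouting tip cells and lymphatic vessels were read in whole kidney. They form a named list of 47 genes, taken by their platform symbols. All 47 were measured, each by a single probe set naming it alone, among 19936 genes in all. RNA came from 8 kidneys on Affymetrix mouse gene arrays: 4 arrays are labelled mutant and 4 are labelled control. Mice labelled mutant had the transgenes Pax8-rtTA and LC-1 together with floxed Vhl, and their littermates are given as control with no further genotype. Doxycycline turns on Cre through these transgenes, under a Pax8 promoter that is active in tubule epithelium and not in vessels, so the deletion is not aimed at the cells that the 47 genes mark. All mice were females of a mixed C57BL/6 and SV127 background. Both groups were given doxycycline (0.2 mg/ml, with 5% sucrose) to drink when they were 3 weeks old. This lasted 2 weeks, 1 week on plain water came next, and kidneys were taken at the age of 6 weeks.

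Endothelial cells line every vessel and are held together by VE-cadherin, PECAM-1 and related junction proteins. Their identity is set by ETS factors such as ERG and FLI1 and by the SoxF factors SOX7, SOX17 and SOX18, while Notch signalling through DLL4 sets the arterial state. In the kidney most endothelium lies in fenestrated capillaries, around the tubules and in the glomeruli, and it answers to VEGF made by neighbouring epithelium, whose gene is induced when HIF (hypoxia-inducible factor) is not degraded through the Vhl product.

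The targeted gene and the HIF response ran against the labels. Vhl read 8.25, 8.32, 8.46 and 8.33 on the arrays labelled mutant and 8.01, 7.99, 7.96 and 8.22 on the arrays labelled control (log2 difference 0.29, limma adjusted p = 0.0387, and 0.0558 with the replicate number as a block). The Vhl call was lost in 6 of 8 fits with 1 array left out (labelled mutant 2, 3 and 4, labelled control 1, 2 and 3, adjusted p 0.0785 to 0.114), and its direction held in all 8. The exact two-sided permutation p for Vhl was 0.0286, the smallest that 4 against 4 arrays allow. Of 12 genes that HIF activates, 10 were called lower in the labelled mutant arrays, led by Egln3 (log2 difference -2.96) and Car9 (-2.88). Over all genes, 4.64% were called lower. The 12 genes were chosen with earlier results of these data known. Which part of the Vhl transcript the probe set reads is not given in the sources used here. Every direction below therefore goes by these labels, and none is read as an effect of losing Vhl. Array medians were 7.55 to 7.58, and markers of kidney tubule were among the highest values: the 9 proximal tubule markers lay between the 92.7 and 99.9 percentiles of all genes by mean level.

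Most endothelial genes were lower in the labelled mutant kidneys. Of the 47 genes 34 fell, 1 (Prox1) rose and 12 did not pass the test, a limma adjusted p under 0.05 over all genes. Over all 19936 genes, 4.64% were called lower and 2.59% higher. The median log2 difference of the 47 genes was -0.48, against 0.03 over all genes, and 43 of 47 differences were below 0, against 41.9% of all genes. In 36 members, 2 of them not called, the 4 labelled mutant arrays all lay below the 4 labelled control arrays, as did 8.2% of all genes. The 34 falls ran from 1.21-fold to 2.54-fold with a median of 1.47-fold, and 15 of them were at least 1.5-fold. The precision is set by the number of arrays: the standard error of a member's log2 difference had a median of 0.0725. In RNA of whole tissue, fewer endothelial cells and less of each RNA per endothelial cell cannot be told apart.

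**Figure D1:**
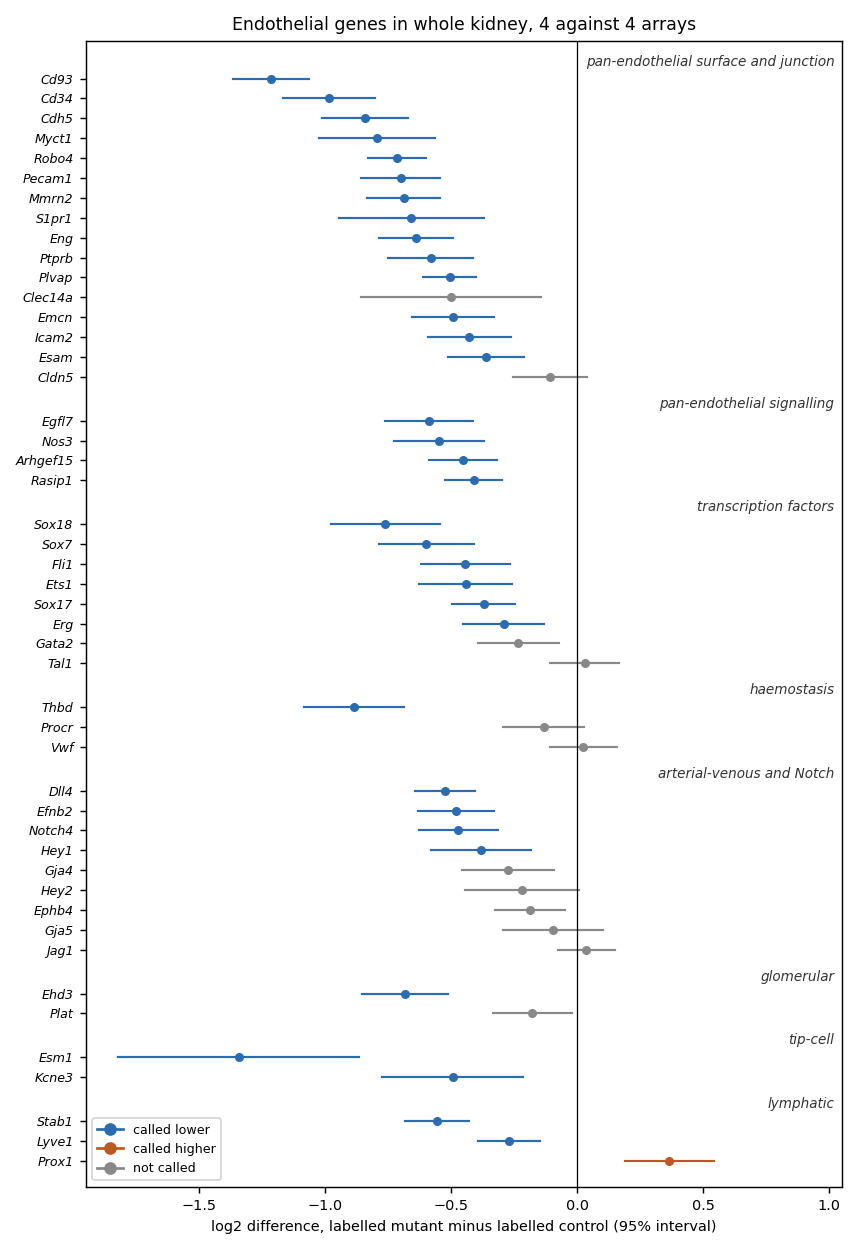
Log2 difference of each of the 47 genes, labelled mutant minus labelled control (points), with its 95% interval from limma (bars), grouped by role. Blue genes were called lower (34), orange higher (1) and grey not called (12). The intervals of Cd93 and Esm1 lie farthest below 0, and those of Vwf, Tal1, Jag1, Cldn5, Procr, Hey2 and Gja5 span it.

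Promoter sequence is shown for 4 genes that fell, each the member with the largest called difference in its role group (surface and junction, arterial-venous, glomerular or tip-cell) among those with a single promoter in the RefSeq table (GRCm38.p6), so that the letters searched can be seen. Each run covers 250 bases before to 50 after the annotated start. Capitals mark AGGAAG or CGGAAG on either strand, longer forms of the GGAA core bound by ETS factors such as ERG and FLI1. Esm1 is chr13:113209409-113209708, Cd34 chr1:194938571-194938870, Dll4 chr2:119325534-119325833 and Ehd3 chr17:73804591-73804890, all on the + strand.
Esm1: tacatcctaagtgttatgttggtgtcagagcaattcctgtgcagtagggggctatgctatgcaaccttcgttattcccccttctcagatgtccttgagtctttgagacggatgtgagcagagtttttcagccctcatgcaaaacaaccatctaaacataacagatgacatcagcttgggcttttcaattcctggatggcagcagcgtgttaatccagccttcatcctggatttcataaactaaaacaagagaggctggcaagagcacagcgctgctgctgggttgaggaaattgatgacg
Cd34: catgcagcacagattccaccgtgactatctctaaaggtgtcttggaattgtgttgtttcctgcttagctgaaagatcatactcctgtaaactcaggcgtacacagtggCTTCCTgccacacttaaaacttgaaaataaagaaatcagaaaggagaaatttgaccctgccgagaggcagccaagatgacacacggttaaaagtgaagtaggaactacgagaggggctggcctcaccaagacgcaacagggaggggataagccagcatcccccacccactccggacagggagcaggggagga
Dll4: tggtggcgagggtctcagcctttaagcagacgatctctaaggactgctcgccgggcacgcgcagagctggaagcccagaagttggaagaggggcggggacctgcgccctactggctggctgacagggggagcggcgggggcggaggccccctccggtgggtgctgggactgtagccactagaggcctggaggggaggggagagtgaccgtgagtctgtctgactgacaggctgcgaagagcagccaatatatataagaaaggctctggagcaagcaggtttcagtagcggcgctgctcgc
Ehd3: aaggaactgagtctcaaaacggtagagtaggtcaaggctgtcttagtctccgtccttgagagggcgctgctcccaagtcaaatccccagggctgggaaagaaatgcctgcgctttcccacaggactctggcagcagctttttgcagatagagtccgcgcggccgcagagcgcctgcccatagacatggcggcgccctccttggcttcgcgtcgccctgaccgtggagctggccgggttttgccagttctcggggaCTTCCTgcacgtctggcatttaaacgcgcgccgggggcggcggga
Cd34 and Ehd3 held 1 such motif each, and Esm1 and Dll4 held 0. GGAA in other surroundings, which the Esm1 and Dll4 runs do hold, was neither marked nor counted. Of the 47 members 26 were in the table, with 34 promoters. AGGAAG or CGGAAG was in 47.1% of these, against 46.5% of all 32851 promoters. AACAAT, a SOX core, was in 5.88% against 10.7%, and TGGGAA, the core bound by the Notch effector RBPJ, in 20.6% against 25.6%. AGATAA, which factors of the Gata2 family bind, was in 8.82% against 11.2%, and ACGTG, the core that HIF binds, in 5 of the 34 against 19.6% of all promoters. Both strands were searched, and matches of different motifs may overlap. These shares describe letters in short windows and say nothing of where a factor binds.

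The surface and junction genes shared by most endothelium formed the largest group. Of 16, 14 fell, against 4.64% of all genes, and 0 rose. All 16 were lower in the labelled mutant array of each of the 4 replicate numbers, a share not computed over all genes. In 14 of the 16 the groups did not overlap, so any pairing would give this for them. Of all genes, 8.2% lay apart in this direction. Cd93, a glycoprotein receptor of endothelial adhesion, read 9.58, 9.77, 9.64 and 9.57 in labelled mutant kidneys and 10.89, 10.72, 10.94 and 10.89 in labelled control kidneys. The groups lay more than a log2 unit apart at their means, with every labelled mutant array far below every labelled control array (2.33-fold lower, log2 difference -1.22 ± 0.067 SE, limma adjusted p = 1.11e-05). Cd34, a sialomucin of capillary endothelium, read 9.72, 9.78, 9.90 and 9.89 in labelled mutant and 10.66, 10.83, 11.01 and 10.71 in labelled control kidneys (1.98-fold lower, -0.99 ± 0.082 SE, adjusted p = 0.000153). Cdh5, which encodes VE-cadherin, read 9.91, 9.97, 10.04 and 10.09 in labelled mutant and 10.74, 10.92, 11.01 and 10.72 in labelled control kidneys (1.79-fold lower, -0.84 ± 0.076 SE, adjusted p = 0.000272). In neither gene did the groups overlap, and the gap between the groups was wider than the spread within either.

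Partners of CD93 in the vessel wall gave smaller differences. Mmrn2, the matrix ligand that both CD93 and CLEC14A bind, was 1.61-fold lower (8.98, 9.13, 9.11 and 8.97 in labelled mutant and 9.72, 9.77, 9.83 and 9.62 in labelled control kidneys, adjusted p = 0.000332). Clec14a itself read 7.15, 7.49, 7.40 and 7.20 in labelled mutant kidneys and 7.48, 8.21, 8.02 and 7.54 in labelled control kidneys. Its groups overlapped, labelled mutant array 2 lying just above labelled control array 1, and its difference of -0.50 (95% interval -0.86 to -0.14) did not pass (adjusted p = 0.0989), although it did with the replicate number as a block (0.0157).

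The remaining 10 called surface genes fell between 1.29-fold and 1.74-fold. At the upper end stood Myct1, a small membrane protein gene (1.74-fold lower), Robo4, an endothelial guidance receptor (1.64-fold), and Pecam1, the junction protein CD31 (1.63-fold). S1pr1, the sphingosine 1-phosphate receptor that tightens junctions, was 1.58-fold lower, and Eng, a co-receptor of BMP signals, 1.56-fold. Ptprb, a phosphatase that acts on VE-cadherin and TIE2, fell by 0.58 on the log2 scale. Plvap, which forms the diaphragms of fenestrae, was 1.42-fold lower, with 10.42 to 10.51 on labelled mutant arrays and 10.96 to 11.01 on labelled control arrays, the tightest groups of all called members by standard error. Emcn, a sialomucin at the 98.7 percentile of all genes by mean level, was 1.41-fold lower, and the adhesion genes Icam2 and Esam 1.35-fold and 1.29-fold. Cldn5, the endothelial tight junction claudin, was the other member that did not pass: it read 8.73, 8.76, 8.59 and 8.54 in labelled mutant and 8.78, 8.85, 8.71 and 8.70 in labelled control kidneys, and its interval of -0.26 to 0.04 leaves out a fall of the size seen in Esam (-0.36).

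**Figure D2:**
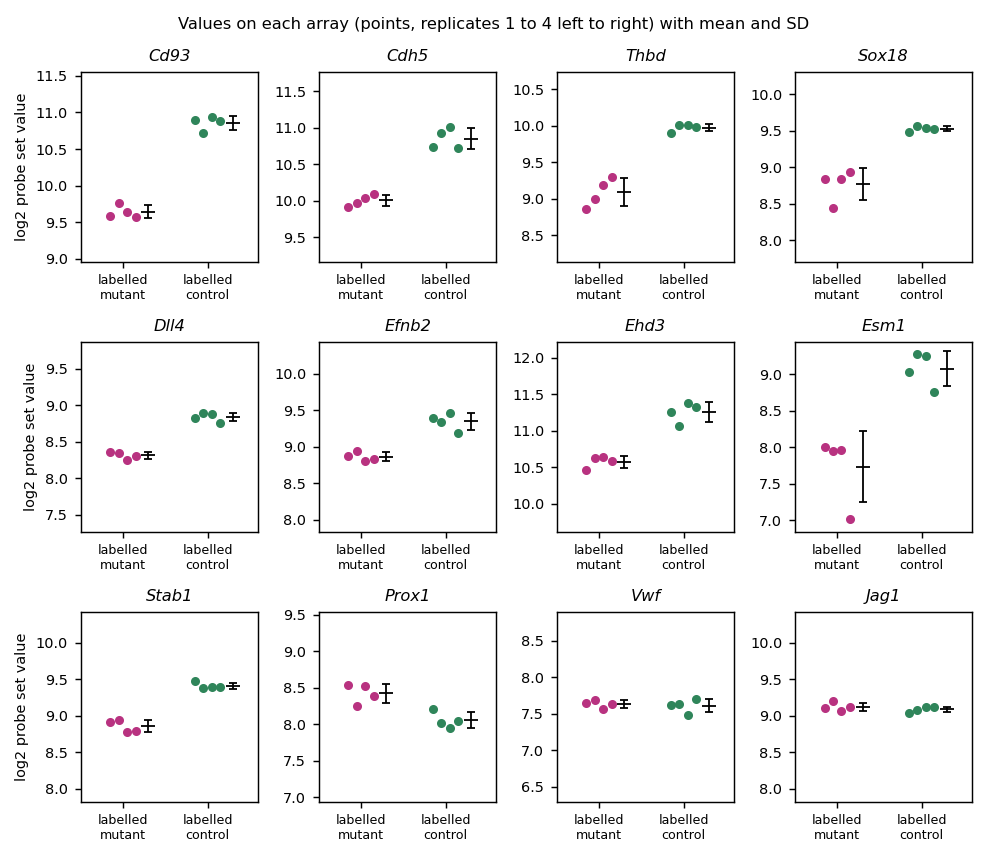
Log2 probe set values of 12 genes on each array, with labelled mutant arrays left of labelled control arrays and the mean and SD of each group (bars, n = 4). Every panel spans the same range of log2 units. The groups lie apart in Cd93, Cdh5, Thbd, Sox18, Dll4, Efnb2, Ehd3, Esm1 and Stab1, lie apart the other way in Prox1, and overlap in Vwf and Jag1.

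All 4 pan-endothelial signalling genes fell. Egfl7, a secreted factor of vessel tube formation, read 9.87, 10.06, 9.99 and 9.98 in labelled mutant kidneys and 10.67, 10.64, 10.61 and 10.34 in labelled control kidneys (log2 difference -0.59, adjusted p = 0.00223). Nos3, the endothelial nitric oxide synthase, was 1.46-fold lower (8.19, 8.25, 7.99 and 8.33 in labelled mutant and 8.82, 8.67, 8.81 and 8.65 in labelled control kidneys, adjusted p = 0.00343). Arhgef15, a signalling gene of endothelium, was 1.37-fold lower (8.54, 8.66, 8.53 and 8.52 in labelled mutant and 8.97, 9.13, 9.02 and 8.95 in labelled control kidneys, adjusted p = 0.00206). The groups did not overlap in any of these, nor in Rasip1, a regulator of vessel lumen formation that was 1.33-fold lower.

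An intron of Egfl7 carries the endothelial microRNA miR-126, whose gene Mir126a has its own probe set and was looked up after the members' values were seen. Its mature strand is given by RefSeq (GRCm38.p6, chr2:26591402-26591423, + strand), with the seed, bases 2 to 8, in capitals.
mmu-miR-126a-3p: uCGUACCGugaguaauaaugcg
The probe set read 4.43, 4.61, 5.12 and 4.83 in labelled mutant kidneys and 5.27, 5.69, 5.70 and 5.03 in labelled control kidneys. The groups overlapped (log2 difference -0.68, adjusted p = 0.0491), and the call was lost after median centring (0.0503) and in 6 of 8 fits with 1 array left out (labelled mutant 1, 2 and 4, labelled control 1, 2 and 3, adjusted p 0.0781 to 0.137). The 8 arrays had lower quartiles of 6.21 to 6.28, above all 8 values, in a range where differences can be compressed, and the probe set may read the precursor and not the mature strand.

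Where 4.64% of all genes were called lower, 6 of 8 transcription factor genes fell and 0 rose. All 3 SoxF genes were among them. Sox18 read 8.84, 8.44, 8.83 and 8.94 in labelled mutant kidneys and 9.48, 9.57, 9.54 and 9.52 in labelled control kidneys (1.70-fold lower, adjusted p = 0.00167). Its labelled control arrays lay within 0.1 of each other, while labelled mutant array 2 lay well below the rest of its group. Sox7 read 7.78, 7.85, 7.91 and 8.12 in labelled mutant and 8.61, 8.35, 8.60 and 8.50 in labelled control kidneys (1.51-fold lower, adjusted p = 0.00302). Sox17, the SoxF gene of arteries, was 1.29-fold lower (7.76, 7.88, 7.94 and 7.81 in labelled mutant and 8.20, 8.27, 8.25 and 8.16 in labelled control kidneys, adjusted p = 0.00384), so the groups did not overlap in any of the 3.

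All 3 ETS genes fell. Fli1 read 8.55, 8.40, 8.57 and 8.59 in labelled mutant and 8.89, 9.08, 9.10 and 8.81 in labelled control kidneys, and Ets1 8.98, 9.03, 8.84 and 8.80 in labelled mutant and 9.38, 9.45, 9.45 and 9.15 in labelled control kidneys, both 1.36-fold lower (adjusted p = 0.00794 and 0.0108). Both genes are also expressed in lymphocytes. Erg, the ETS factor most restricted to endothelium among the 3, was 1.23-fold lower (8.49, 8.55, 8.44 and 8.51 in labelled mutant and 8.59, 8.85, 8.92 and 8.80 in labelled control kidneys, adjusted p = 0.0387). Leaving out 1 array ended that call for each of the 4 labelled mutant arrays and for labelled control arrays 2, 3 and 4 (adjusted p 0.0727 to 0.109). Gata2, which also acts in blood progenitors, had a difference of -0.23 and did not pass (adjusted p = 0.0845), but passed with the replicate block (0.0458) and without labelled mutant array 4 (0.0372). Tal1, a blood and endothelial factor, read 8.11, 7.97, 7.96 and 7.94 in labelled mutant and 7.94, 8.04, 7.87 and 8.01 in labelled control kidneys, with overlapping groups and an interval of -0.11 to 0.17.

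The haemostatic genes parted. Thbd, thrombomodulin, which turns thrombin towards protein C, read 8.86, 8.998, 9.19 and 9.29 in labelled mutant kidneys and 9.90, 10.01, 10.01 and 9.99 in labelled control kidneys (1.85-fold lower, -0.89 ± 0.089 SE, adjusted p = 0.000479). The labelled mutant arrays were spread out, 1 lowest and 4 highest, and still lay wholly below the labelled control arrays, which lay close together. Procr, the receptor that presents protein C to thrombomodulin, read 7.91, 7.76, 7.59 and 7.66 in labelled mutant and 7.93, 7.88, 7.84 and 7.81 in labelled control kidneys, and did not pass (95% interval -0.30 to 0.03). Vwf, von Willebrand factor, which endothelium of larger vessels and platelets hold, read 7.65, 7.69, 7.57 and 7.64 in labelled mutant and 7.62, 7.64, 7.49 and 7.71 in labelled control kidneys. Its groups overlapped and its interval of -0.11 to 0.16 lies wholly above that of Thbd (-1.09 to -0.69). Of 5 platelet genes read beside them 0 passed (1 lower at an unadjusted p under 0.05, and 0 passed with the replicate block), and their mean level overlapped between the groups (7.36 to 7.601 in labelled mutant and 7.35 to 8.18 in labelled control kidneys). Ppbp, a platelet chemokine gene, had the largest difference of the 5 (-0.93, adjusted p = 0.288).

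Arterial, venous and Notch genes fell in part: 4 of 9 fell, 0 rose and 5 did not pass, with a median log2 difference of -0.28, against -0.51 over the 31 pan-endothelial members. Of all genes, 4.64% were called lower. Whether the groups of genes differ in their shift was not tested. Dll4, the Notch ligand of arterial and tip cells, read 8.35, 8.35, 8.25 and 8.31 in labelled mutant kidneys and 8.82, 8.89, 8.89 and 8.76 in labelled control kidneys (1.44-fold lower, -0.52 ± 0.053 SE, adjusted p = 0.000494). Efnb2, the arterial ephrin ligand, read 8.88, 8.95, 8.81 and 8.83 in labelled mutant and 9.39, 9.34, 9.47 and 9.19 in labelled control kidneys (1.40-fold lower, adjusted p = 0.00273). Notch4, the endothelial Notch receptor, read 9.09, 9.27, 9.09 and 9.27 in labelled mutant and 9.69, 9.76, 9.53 and 9.63 in labelled control kidneys (1.39-fold lower, adjusted p = 0.00363). In these 3 genes, a ligand, an arterial mark and a receptor, the groups did not overlap.

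The 2 Notch target genes gave less stable values. Hey1 read 7.595, 7.52, 7.43 and 7.58 in labelled mutant kidneys and 7.75, 7.80, 8.16 and 7.95 in labelled control kidneys (log2 difference -0.38, adjusted p = 0.0295). It did not pass with the replicate block (0.0598), nor when labelled mutant array 2, 3 or 4 or labelled control array 3 or 4 was dropped (0.0505 to 0.0783). Hey2 had a difference of -0.22 with an interval of -0.45 to 0.01, its groups overlapping and labelled mutant array 1 lowest at 7.23. The other Notch ligand among the members, Jag1, which tubule and smooth muscle cells also make, read 9.11, 9.20, 9.07 and 9.12 in labelled mutant and 9.05, 9.09, 9.12 and 9.12 in labelled control kidneys, with an interval of -0.08 to 0.15.

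The gap junction genes of arterial endothelium did not pass. Gja4, connexin 37, read 7.56, 7.77, 7.80 and 7.83 in labelled mutant and 7.95, 8.01, 8.21 and 7.92 in labelled control kidneys, with groups that did not overlap (difference -0.28, adjusted p = 0.0772). Gja5, connexin 40, which renin cells also make, read 7.91, 7.75, 7.68 and 7.57 in labelled mutant and 7.73, 7.86, 8.003 and 7.70 in labelled control kidneys, with overlapping groups (difference -0.10, interval -0.29 to 0.10). Ephb4, the venous receptor of ephrin B2, read 10.17, 9.96, 10.09 and 10.14 in labelled mutant and 10.28, 10.19, 10.35 and 10.29 in labelled control kidneys, just apart (difference -0.19, adjusted p = 0.109). The arterial ligand and its venous receptor thus had intervals of -0.63 to -0.33 for Efnb2 and -0.33 to -0.05 for Ephb4.

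The wider Notch pathway stood mostly below the threshold. Of 19 measured genes 2 fell, 1 rose and 16 did not pass (over all genes, 4.64% fell and 2.59% rose), with a median of -0.11. With the replicate block 4 were called lower, Hes1 (adjusted p = 0.0449) and Mfng (0.0335) being added, and 0 higher. Notch3, the receptor of smooth muscle and pericytes, had a difference of -0.42 (adjusted p = 0.00221). Jag2, a ligand made by endothelium, had one of -0.32 (0.0254, and 0.0577 to 0.0773 when labelled mutant array 2, 3 or 4 or labelled control array 2 or 3 was dropped). The gene that rose, Notch2, had a difference of 0.21 and lost its call with the replicate block (0.0516), and when any 1 of 7 arrays, all but labelled mutant array 1, was dropped (0.0564 to 0.0916).

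Of the glomerular genes, Ehd3, an endocytic recycling gene enriched in glomerular endothelium, read 10.46, 10.63, 10.64 and 10.58 in labelled mutant kidneys and 11.26, 11.07, 11.38 and 11.33 in labelled control kidneys (1.61-fold lower, -0.68 ± 0.076 SE, adjusted p = 0.000793). The groups lay well apart. Plat, tissue plasminogen activator, read 9.86, 10.14, 10.07 and 10.08 in labelled mutant and 10.14, 10.21, 10.21 and 10.31 in labelled control kidneys. Its groups just overlapped, labelled mutant array 2 lying level with labelled control array 1, and its difference of -0.18 did not pass (interval -0.34 to -0.02). Of 7 podocyte genes, which mark the epithelial side of the same filter, 0 passed (2 were higher at an unadjusted p under 0.05, and 0 passed with the replicate block). Their median difference was 0.10, the largest being that of Nphs1, nephrin (0.17, adjusted p = 0.147), and the mean level of the list overlapped between the groups (9.12 to 9.26 in labelled mutant and 9.10 to 9.23 in labelled control kidneys).

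Both tip-cell genes fell. Esm1, the secreted proteoglycan endocan of sprouting tips, read 8.01, 7.95, 7.96 and 7.01 in labelled mutant kidneys and 9.03, 9.27, 9.24 and 8.76 in labelled control kidneys. Its fall was the largest of the 47 genes (2.54-fold, -1.34 ± 0.214 SE, adjusted p = 0.0049), and its standard error was also the largest. Labelled mutant array 4 lay about a log2 unit below the other 3, and without it the difference was -1.10 (adjusted p = 0.00158). Kcne3, a potassium channel subunit gene found in tip cells, read 6.49, 6.46, 6.28 and 6.16 in labelled mutant and 6.93, 7.17, 6.57 and 6.71 in labelled control kidneys (1.41-fold lower, adjusted p = 0.043). It is the only member whose mean lay in the lower quartile of all genes, so its difference may be compressed. Dropping labelled mutant array 2, 3 or 4, or labelled control array 1, 2 or 4, ended its call (0.0513 to 0.109).

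The 3 lymphatic genes did not move together. Stab1, a scavenger receptor of lymphatic and sinusoidal endothelium and of macrophages, read 8.91, 8.94, 8.77 and 8.79 in labelled mutant kidneys and 9.47, 9.38, 9.39 and 9.39 in labelled control kidneys (1.47-fold lower, adjusted p = 0.000523). Lyve1, the hyaluronan receptor of lymphatic vessels and of some macrophages, read 7.20, 7.25, 7.36 and 7.28 in labelled mutant and 7.47, 7.54, 7.55 and 7.62 in labelled control kidneys (1.21-fold lower, adjusted p = 0.0156). Prox1, the lymphatic master factor that is also present in tubule cells of the loop of Henle, read 8.53, 8.26, 8.52 and 8.38 in labelled mutant and 8.21, 8.02, 7.95 and 8.05 in labelled control kidneys, so that the labelled mutant arrays all lay above the labelled control arrays. It rose 1.29-fold (adjusted p = 0.0216), as did 2.59% of all genes, and did not pass once labelled mutant array 1 or 3, or labelled control array 2 or 3, was dropped (0.0512 to 0.0682). Beside it, 3 of 9 distal nephron genes rose, led by Calb1 (0.54) and Aqp3 (0.45, a call lost when labelled mutant array 1, 2 or 4 or labelled control array 2 or 3 was dropped, 0.0598 to 0.106), 0 fell and their median difference was 0.24, with a mean level of 11.54 to 11.71 in labelled mutant and 11.32 to 11.46 in labelled control kidneys. With the replicate block 5 of the 9 were called higher, Slc12a1 (adjusted p = 0.0456) and Slc12a3 (0.0341) being added. The part of tubule cells in the Prox1 value was not tested.

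**Figure D3:**
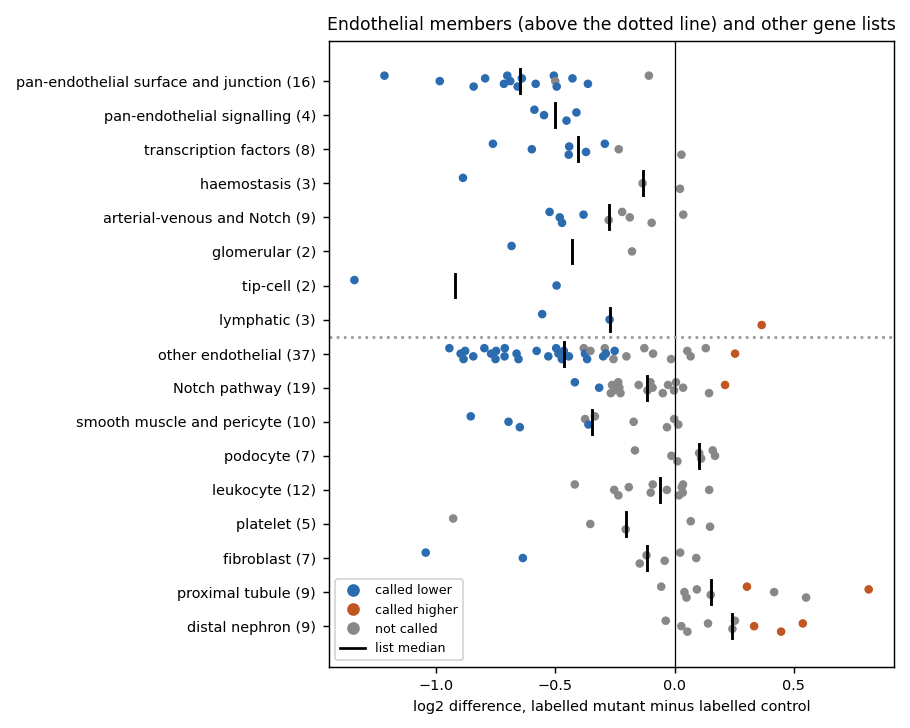
Log2 differences, labelled mutant minus labelled control, of each gene (points, coloured by call) in the 8 role groups of the 47 members, above the dotted line, and in 9 other lists, with the number of genes in brackets and the list median as a black bar. The medians of all 8 role groups lie below 0, and those of the podocyte, proximal tubule and distal nephron lists lie above it.

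Endothelial genes outside the 47 were also mostly lower. Of 37 measured, 25 fell, 1 rose and 11 did not pass, with a median log2 difference of -0.46. Over all genes, 4.64% were called lower and 2.59% higher. This list was read on the same 8 arrays and chosen with earlier results of these data known, so it is no independent support. The largest falls were those of Cyyr1, a membrane protein gene (-0.94), and Kdr, the main VEGF receptor (-0.90). The gene that rose, Mecom, a zinc finger factor also made by tubule cells, had a difference of 0.25 and lost its call with the mean of its probe sets (0.16, adjusted p = 0.112) and in 5 of 8 fits that left out an array (adjusted p 0.0708 to 0.104).

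Genes of neighbouring cells moved with the endothelial genes in part. Over all genes, 4.64% were called lower and 2.59% higher. Of 10 smooth muscle and pericyte genes 4 fell and 0 rose (median -0.35), with Cnn1 and Acta2, contractile genes, at -0.86 and -0.70. The mean level of that list was 9.16 to 9.44 in labelled mutant and 9.55 to 9.73 in labelled control kidneys. Of 7 fibroblast genes 2 fell, Lum at -1.04 and Dcn at -0.64, both of which make matrix proteoglycans, and the median was -0.12. The mean level of the fibroblast list did not overlap between the groups (8.95 to 9.04 in labelled mutant and 9.14 to 9.32 in labelled control kidneys). In the proximal tubule list 2 of 9 rose, Slc6a19, an amino acid transporter, by 0.81 and Slc22a8, an organic anion transporter, by 0.30 on the log2 scale, and 0 fell. Slc22a8 lost its call when labelled mutant array 2, 3 or 4 or labelled control array 1, 3 or 4 was dropped (0.0699 to 0.121). The mean level of the proximal tubule list just overlapped between the groups (12.457 to 12.715 in labelled mutant and 12.148 to 12.462 in labelled control kidneys). The part of these other cells in the members' falls was not tested.

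Several members are also made by leukocytes, among them Pecam1, Cd93, Icam2, Ets1, Fli1, Stab1 and Lyve1. Of 12 leukocyte genes 0 passed (2 were lower at an unadjusted p under 0.05, and the same number, Itgam and Cd68, passed with the replicate block), with a median of -0.06 and the largest difference in Itgam (-0.42, adjusted p = 0.0530). The mean level of the list was 7.92, 7.97, 7.49 and 7.53 in labelled mutant and 7.85, 7.92, 7.82 and 7.68 in labelled control kidneys, so labelled mutant arrays 1 and 2 were high and 3 and 4 low. In 12 of the 47 members, Ets1 and Stab1 among them, labelled mutant arrays 1 and 2 both lay above 3 and 4. In 10, Fli1, Pecam1 and Lyve1 among them, both lay below. The share of all genes in either order was not computed, so these counts are description only. The count of members lower was 30 without labelled mutant arrays 3 and 4, and 28 without 1 and 2. In those fits Stab1 kept its call. Ets1 lost its call without arrays 3 and 4 (adjusted p = 0.0619), and Fli1, Esam and Lyve1 without arrays 1 and 2 (0.0583, 0.0800 and 0.104). Erg, Hey1 and Kcne3 lost their calls in either fit. The part of leukocytes in the members' falls was not tested.

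**Figure D4:**
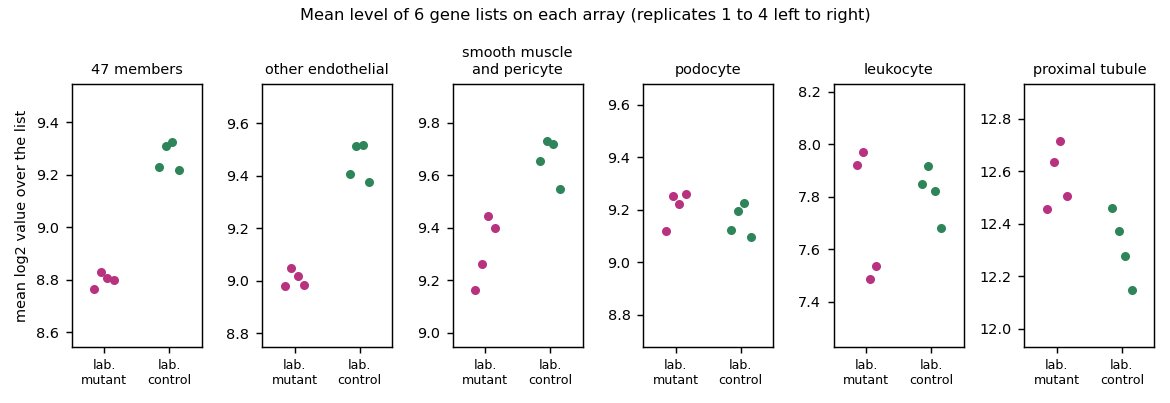
Mean log2 value over 6 gene lists on each array, labelled mutant left of labelled control. Every panel spans the same range of log2 units. The 47 members average 8.76 to 8.83 on labelled mutant and 9.22 to 9.33 on labelled control arrays, while the podocyte and leukocyte lists overlap between the groups.

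Within a group the members varied little and partly together. The average of the 47 genes was 8.76, 8.83, 8.81 and 8.80 in labelled mutant kidneys, against 9.23, 9.31, 9.33 and 9.22 in labelled control kidneys. Labelled mutant array 1 was the lowest of its group in 24 of 47 genes, and labelled control arrays 4 and 1 in 20 and 16. Deviations from the group means over the 47 genes correlated at 0.428, 0.352, 0.234 and 0.509 between arrays of the same replicate number, and at -0.342 to 0.168 between arrays of different numbers. Each of these is a correlation across genes that share arrays, given as a description. In 42 of 47 genes the labelled mutant array was lower for all 4 replicate numbers. For the 36 members whose groups did not overlap, lower in labelled mutant, any pairing would give this. Of all genes, 8.2% lay apart in this way. Shares over all genes were not computed for the 42 genes or for the counts of lowest arrays, so these are description only. Across members, the mean level and the log2 difference correlated at -0.339 (n = 47 genes, on the same arrays).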

How the data were processed

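The authors deposited a table of 35556 probe sets by 8 arrays, on a log2 scale as its range of 1.92 to 14.66 shows. The submitters' processing notes name limma. Background correction, summarization, normalization and build are not given in the sources used here. Total RNA of whole kidney was purified with TRIzol and RNeasy columns and labelled with biotin, per the labels' protocols. The table gives no background signal, so none of the genes was called absent.

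Names came from the platform annotation: 21789 probe sets name 1 gene, 1621 several and 12146 are unlisted. Of the 21789, 21701 matched a gene of GRCm38.p6 by Entrez identifier or accession. The probe set with the highest mean stood for each gene. A linear model over all 19936 genes came from limma 3.58.1 under R 4.3.3 (lmFit and eBayes, labelled mutant minus labelled control, two-sided). P-values were adjusted by Benjamini-Hochberg and called under 0.05. The fit was tested on simulated data. With 4 arrays a group, p-values weigh each difference against the spread between these samples, with variances drawn towards a value shared by all genes. The main fit does not use the replicate number. Alternatives were other normalizations, filters, variance settings, thresholds, the replicate block and leaving out arrays.

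Arrays of the same replicate number deviated together (correlations over all genes 0.138, 0.153, 0.295 and 0.175), which was taken as pairing from the data, not the labels. Between different numbers these correlations were -0.193 to 0.111, the highest being close to the lowest of the same number. A fit with the number as a block is quoted for named genes whose call differs in it, for lists whose count it moves by over 1.5 times, and beside counts of 0. Members and lists were chosen with earlier results of these data known. Members were named in full where called with the largest differences in their role group, or, if not called, with a log2 difference within 0.1 of 0 or of at least 0.4; others named in the text were added for their role. Of the other lists, the 2 largest called genes were named.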

Additional observations from a re-analysis of the deposited data

Results flagged for a closer look

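In 96 groups of 4 arrays (47 members and Vhl in each group) 5 held an array far from the other 3 by Dixon's test, where chance gives about 1 in 20. Labelled mutant array 4 read 7.01 for Esm1, against 7.95 to 8.01 on the other labelled mutant arrays. Labelled mutant array 1 read 8.97 for Robo4, with the others at 9.09. Labelled mutant array 2 read 8.66 for Arhgef15, with the others at 8.52 to 8.54. Labelled control array 1 read 9.64 for Esam, with the others at 9.84 to 9.86, and 9.47 for Stab1, with the others at 9.38 to 9.39. All 5 genes were called lower without the array named.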

How the results depend on the processing

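Over 17 alternatives at the same threshold 28 to 35 members were called lower (34 as reported), 31 to 33 of them when 1 array was left out. Of the 34 genes, 27 were called lower in every one of these in which they were tested (all 17, or 16 for Myct1), and Erg, Hey1, Kcne3, Esam, Fli1, Ets1 and Lyve1 lost their call in at least 1. At an adjusted p under 0.01, 27 members were lower, 0 higher and 602 genes called in all. With the replicate block 35 members were lower and 1657 genes were called, against 1442. Pan-endothelial members lower numbered 22 to 27, arterial-venous members 3 or 4 and other endothelial genes 20 to 28. Members higher were 0 or 1 when an array was left out, and 0 without labelled mutant arrays 3 and 4 together. The count of all genes called ranged from 902 to 1368 when an array was left out: 917 without labelled mutant array 2, 903 without labelled control array 2 and 902 without labelled control array 3. Vhl kept its direction, with differences of 0.25 to 0.35 when an array was left out (not passing in 6 of 8 such fits, adjusted p 0.0785 to 0.114), and did not pass with the replicate block (0.29, adjusted p = 0.0558), without labelled mutant arrays 1 and 2 (0.35, 0.0661) or 3 and 4 (0.23, 0.123), or under 0.01 (0.29). Signs turned only for genes near 0 that were not called: Tal1 without labelled mutant array 1 (-0.0109), labelled control array 3 (-0.0046) or labelled mutant arrays 1 and 2 (-0.0179), Vwf without labelled control array 3 (-0.0193) or labelled mutant arrays 1 and 2 (-0.0114), and Gja5 without labelled mutant arrays 3 and 4 (0.0053). Leaving out 1 array gave -0.0109 to 0.0549 for Tal1 and -0.0193 to 0.0540 for Vwf. The cause was not tested. Among the upper 60% of genes by mean, 3 members, Myct1, Kcne3 and Lyve1, were not tested. Low values such as those of Kcne3 and Mir126a can be compressed.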
